A study of Mus musculus with 6 samples.

Results

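The complement and coagulation genes of the liver were followed in diabetic mice with fatty liver disease that received telmisartan or vehicle. The list held 52 genes in 6 roles: complement components, complement regulators, complement receptors, clotting factors, clotting inhibitors and genes of fibrinolysis. A gene was measured when a probe set of the array carried its symbol and no other, and the brightest such probe set stood for it, which left 47 of the 52 among 22087 genes. C3, Cfd and Cpb2 had no probe set with their symbol, and those of Masp2 and Klkb1 were shared with another symbol, so these 5 genes were not analysed here.

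Complement is a set of plasma proteins that cut and bind one another on a surface, ending in a pore built from C5b, C6, C7, C8 and C9, while regulators on host cells break the chain. Coagulation is a cascade of serine proteases that ends when thrombin cuts fibrinogen to fibrin. Plasmin later dissolves it. Hepatocytes make most of the circulating proteins of both systems, whereas several inhibitors and activators at the vessel wall come largely from endothelial cells.

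The animals were STAM mice, male C57BL/6J mice given 200 µg of streptozotocin under the skin 2 days after birth and fed from the age of 4 weeks on a diet whose fat content was 60 kcal%. Streptozotocin destroys the beta cells of the pancreas, and with the diet it leads to diabetes and steatohepatitis. The telmisartan group received 5 mg/kg per day of telmisartan, a blocker of the angiotensin II type 1 receptor, by mouth in 0.5% carboxymethyl cellulose between 6 and 12 weeks of age, and the vehicle group received the carboxymethyl cellulose alone. Liver RNA of 3 of the 7 mice in each group was hybridised to Affymetrix Mouse Gene 2.0 ST arrays, 1 array per mouse, named here telmisartan 1 to 3 and vehicle 1 to 3. Streptozotocin and the diet were common to both groups, so no value below refers to a healthy liver. The number of arrays limits the precision.

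Levels are log2 intensities. Each belongs to its own probe set, so levels of different genes are not set against each other. Every pair of arrays correlated at 0.984 to 0.991 over all probe sets, and the median log2 intensity of an array lay between 2.85 and 2.93. The 12 hepatocyte markers had mean levels of at least 7.33, and their summed linear intensity was 35520 to 37870 on the telmisartan arrays and 36610 to 37930 on the vehicle arrays. A call, higher or lower with telmisartan, needed an unadjusted limma p under 0.05 together with a 1.2-fold difference, as the study set them. After adjustment over all probe sets no gene, of 22087, was under 0.05 in limma, and 1553 were so before it.

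There were 7 called members. F11 and F13b, both clotting factors, were higher with telmisartan. Tfpi and Procr, inhibitors of clotting, Plat, the tissue activator of plasminogen, and Cd55 and Cd59a, regulators of complement on the cell surface, were lower. These were 2 of 47 members higher (4.26%), against 3.08% of all genes, and 5 of 47 lower (10.6%), against 3.5% of all genes. In either direction 7 of 47 members (14.9%) were called, against 6.58% of all genes. The lowest limma adjusted p among the members was 0.695. The methods' t-test called only Cd59a of the 47 members, against 712 of all 22087 genes. The 3 telmisartan arrays lay above the 3 vehicle arrays for 1 member, Plau, and below them for 3 members, Cd59a, Tfpi and Cfp, while over all genes this held for 6.08% above and 6.35% below.

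The measured difference between the groups was small for most members. The log2 fold change, telmisartan minus vehicle, had a median of 0.00158 over the 47 members and of -0.000593 over all 22087 genes. It was positive for 24 members and negative for 23, and it was smaller than 0.2 in size for 34 of the 47. The share of all genes under that size was not counted. The members' median standard error was 0.135, so small differences in either direction could not be resolved. The 31 members with a mean log2 intensity of at least 7, mostly plasma proteins of the hepatocyte, held 2 calls (6.45%), against 10.4% of the 1485 genes of that brightness. The 16 dimmer members held 5 calls (31.2%), against 6.3% of the genes under 7. The plot of fold changes by role sets the 7 called genes beside the rest.

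**Figure D1:**
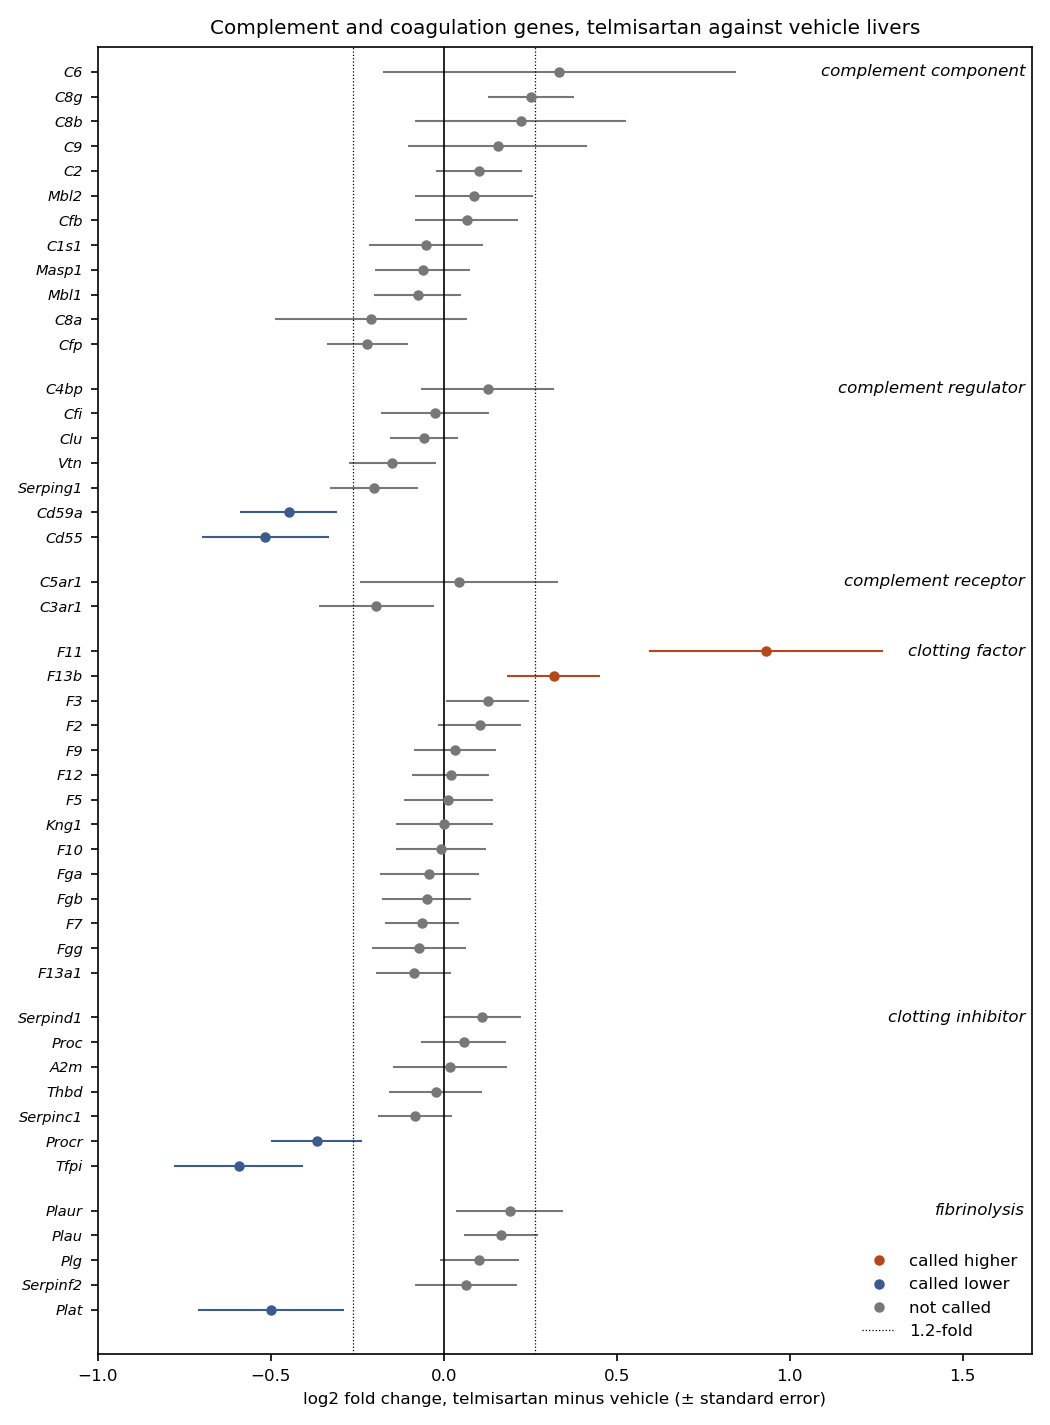
The log2 fold change of each of the 47 measured genes, telmisartan minus vehicle, with its limma standard error as a bar, grouped by role and ordered within each role by size. Red genes were called higher (F11 and F13b) and blue genes lower (Cd59a, Cd55, Procr, Tfpi and Plat), grey genes were not called, and the dotted lines mark a fold of 1.2.

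Of the 14 clotting factors 2 were called higher (14.3%, against 3.08% of all genes) and none was called lower. For 12 of the 14 the log2 fold change was smaller than 0.2 in size. F11 encodes factor XI, the zymogen of a protease that activates factor IX. Its level (probe set 17509035) was 6.67, 7.44 and 6.64 on telmisartan 1 to 3, against 6.76, 5.68 and 5.51 on vehicle 1 to 3. Vehicle 1 thus lay among the telmisartan arrays, and vehicle 2 and 3 lay about a log2 unit under them. F11 averaged 6.92 ± 0.45 with telmisartan and 5.98 ± 0.68 with vehicle (SD, n = 3 each), a 1.91-fold difference and the largest of all 47 members. This was a log2 fold change of 0.93, with a standard error of 0.34 (limma p of 0.0239 unadjusted, adjusted p = 0.696). The call was lost without telmisartan 2 (log2 fold change 0.671), vehicle 2 (0.778) or vehicle 3 (0.695).

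F13b encodes the carrier subunit of factor XIII, the enzyme that cross-links fibrin. On probe set 17217946 it gave 8.02, 8.33 and 8.23 on the telmisartan arrays, against 8.09, 7.81 and 7.73 on the vehicle arrays. Vehicle 1 was again the highest vehicle array and lay above telmisartan 1. F13b thus differed by 0.32 on the log2 scale, with a standard error of 0.13 (limma p of 0.0448 unadjusted, adjusted p = 0.706). The call was lost without telmisartan 2 (0.252), telmisartan 3 (0.298), vehicle 2 (0.284) or vehicle 3 (0.247). F13a1, the catalytic subunit of the same enzyme, was dim, between 2.43 and 2.69 on all arrays, and its log2 fold change of -0.09 was not called. F11 and F13b varied together over the 6 arrays, with a Pearson r of 0.945, or 0.887 for the deviations from the group means, given as a description of arrays that were scaled together.

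The promoters of these 2 genes are shown because they were the only members called higher and varied together. Each run is the 150 bases before the RefSeq transcription start (GRCm38.p6), chr8:45262032-45262181 on the minus strand for F11 and chr1:139501557-139501706 on the plus strand for F13b. Capitals mark letters that match, on either strand, motifs of 3 factors common in hepatocytes: GTTAAT, the core of an HNF1 site, CAAAG, the core of an HNF4 site, and TTGCNNAA, a C/EBP site. No motif of the 3 contains another.
F11: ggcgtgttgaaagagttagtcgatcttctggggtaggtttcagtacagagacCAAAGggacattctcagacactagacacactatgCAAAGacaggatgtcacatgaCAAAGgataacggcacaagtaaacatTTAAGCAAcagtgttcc
F13b: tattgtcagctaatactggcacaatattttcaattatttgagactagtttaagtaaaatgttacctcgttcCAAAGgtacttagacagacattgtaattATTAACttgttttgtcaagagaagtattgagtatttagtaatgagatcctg
F11 held 3 copies of the HNF4 core and 1 C/EBP match, and F13b held 1 HNF4 core and 1 HNF1 core. Among the 34 measured members with a promoter in the table, 18 (52.9%) held the HNF4 core, against 31.5% of all 32851 promoter windows of that length. The HNF1 core was in 7 (20.6%), against 3.71% of all windows, and the C/EBP letters were in 6 (17.6%), against 5.46%. A match describes the letters only. A member with 2 starts was counted once, by a match in either window, while the shares of all windows were counted per window. The 2 kinds of share are thus not of like units.

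**Figure D2:**
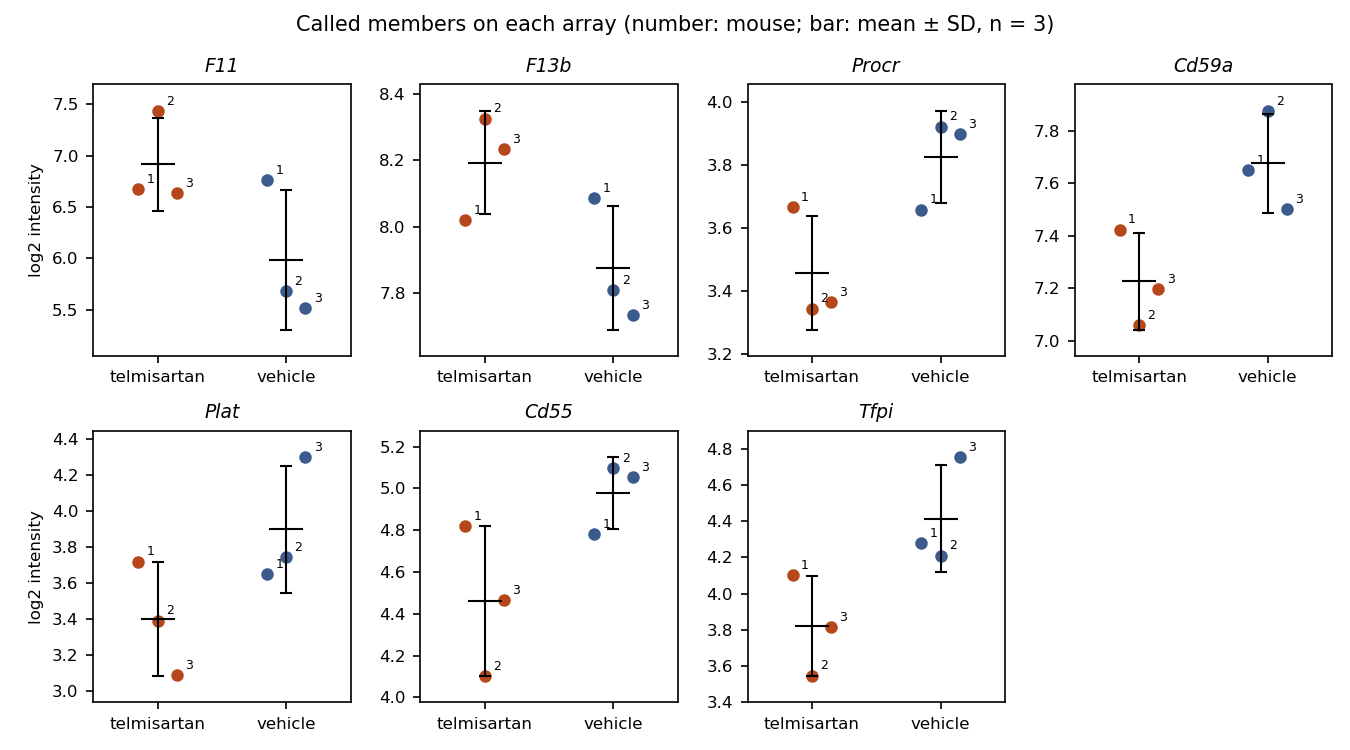
The log2 intensity of the 7 called genes on each array, with telmisartan (red) left of vehicle (blue), the mouse number beside each point, and the mean ± SD of 3 mice as a bar. The groups were apart for Cd59a and Tfpi, and overlapped by 1 array or more for F11, F13b, Procr, Plat and Cd55.

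Fibrinogen, the substrate of thrombin, is built from 3 chains whose genes lie next to each other in RefSeq. Fga gave 10.61, 11.01 and 10.60 on the telmisartan arrays, against 10.94, 10.70 and 10.70 on the vehicle arrays. Fgb gave 11.57, 11.95 and 11.62 with telmisartan, against 11.85, 11.76 and 11.68 with vehicle. Fgg gave 11.47, 11.85 and 11.48 with telmisartan, against 11.79, 11.65 and 11.56 with vehicle. Telmisartan 2 and vehicle 1 were the highest arrays for all 3 chains, and the groups overlapped. The log2 fold changes were -0.04 for Fga (95% interval -0.37 to 0.29), -0.05 for Fgb (-0.35 to 0.25) and -0.07 for Fgg (-0.38 to 0.24), and none was called. The chains were close to one another over the 6 arrays, with a Pearson r of 0.964 for Fga and Fgb, 0.974 for Fga and Fgg and 0.990 for Fgb and Fgg.

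The promoters of the 3 chains are shown as those of neighbouring genes that varied together: 150 bases before the start, at chr3:83026003-83026152 on the plus strand for Fga, chr3:83049864-83050013 on the minus strand for Fgb and chr3:83007574-83007723 on the plus strand for Fgg (GRCm38.p6), with the same motifs in capitals.
Fga: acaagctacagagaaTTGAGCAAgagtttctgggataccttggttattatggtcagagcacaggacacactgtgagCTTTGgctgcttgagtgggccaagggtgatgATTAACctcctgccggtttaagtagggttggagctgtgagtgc
Fgb: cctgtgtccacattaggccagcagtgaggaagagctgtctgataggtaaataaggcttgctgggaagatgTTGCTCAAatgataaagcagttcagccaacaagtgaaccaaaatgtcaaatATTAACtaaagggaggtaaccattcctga
Fgg: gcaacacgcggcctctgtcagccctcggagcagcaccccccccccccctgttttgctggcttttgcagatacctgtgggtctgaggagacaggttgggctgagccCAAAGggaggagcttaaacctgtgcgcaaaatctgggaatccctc
Fga held 1 match to each of the 3 motifs, Fgb held the HNF1 core and the C/EBP letters, and Fgg held the HNF4 core alone.

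The vitamin K-dependent proteins F2, F7, F9, F10 and Proc carry Gla residues that bind calcium and membranes. All 5 had log2 fold changes between -0.06 and 0.10, and none was called. F7, the factor that starts clotting with tissue factor, gave 7.70, 7.69 and 7.52 with telmisartan, against 7.72, 7.62 and 7.76 with vehicle. Its neighbour F10, whose product forms thrombin, gave 8.56, 8.89 and 8.57 with telmisartan, against 8.81, 8.57 and 8.67 with vehicle. The groups overlapped for both, and the log2 fold changes were -0.06 for F7 and -0.01 for F10. Prothrombin, encoded by F2, averaged 10.54 ± 0.18 with telmisartan and 10.44 ± 0.05 with vehicle (SD, n = 3 each). Of the remaining clotting factors, F3 (tissue factor, 0.13), F12 (0.02), F5 (0.01) and Kng1 (kininogen, 0.00) were not called either.

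Among the 7 clotting inhibitors, Tfpi and Procr were called lower (28.6%, against 3.5% of all genes) and none was called higher. Tfpi, tissue factor pathway inhibitor, blocks factor Xa and the complex of factor VIIa with tissue factor. Its level (probe set 17387407) was 4.10, 3.55 and 3.81 on the telmisartan arrays, against 4.28, 4.21 and 4.75 on the vehicle arrays, and the groups did not overlap. Tfpi averaged 3.82 ± 0.28 with telmisartan and 4.41 ± 0.29 with vehicle (SD, n = 3 each). The log2 fold change was -0.59 with a standard error of 0.19 (limma p of 0.0123 unadjusted, adjusted p = 0.695). The call was lost without telmisartan 2 (-0.456).

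Procr encodes the endothelial protein C receptor, which presents protein C for activation. Its level (probe set 17378440) was 3.67, 3.34 and 3.36 with telmisartan, against 3.66, 3.92 and 3.90 with vehicle. Telmisartan 1 and vehicle 1 were at nearly the same level and the other arrays of the groups were apart. Procr had a log2 fold change of -0.37, with a standard error of 0.13 (limma p of 0.0222 unadjusted, adjusted p = 0.696). The call was lost without telmisartan 2 (-0.311), telmisartan 3 (-0.321), vehicle 2 (-0.32) or vehicle 3 (-0.332). Thbd, thrombomodulin, which switches thrombin to the activation of protein C, had a log2 fold change of -0.02 (95% interval -0.33 to 0.29), and Proc, protein C itself, one of 0.06 (-0.22 to 0.34).

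Serpinc1, antithrombin, gave 10.11, 10.29 and 10.12 with telmisartan, against 10.35, 10.22 and 10.19 with vehicle. Serpind1, heparin cofactor II, gave 9.74, 9.95 and 9.97 with telmisartan, against 9.87, 9.75 and 9.70 with vehicle. The groups overlapped for both of these serpins of the hepatocyte, with log2 fold changes of -0.08 and 0.11. A2m, a broad protease inhibitor, was dim, between 1.91 and 2.52 on all arrays, and its log2 fold change was 0.02.

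Of the 5 genes of fibrinolysis only Plat was called, and it was lower (20%, against 3.5% of all genes called lower). Plat encodes tissue plasminogen activator. Probe set 17499962 gave 3.72, 3.39 and 3.08 with telmisartan, against 3.65, 3.74 and 4.30 with vehicle, so that telmisartan 1 lay between vehicle 1 and 2. Plat had a log2 fold change of -0.50, with a standard error of 0.21 (limma p of 0.0436 unadjusted, adjusted p = 0.704). The call was lost without telmisartan 2 (-0.496), telmisartan 3 (-0.344), vehicle 2 (-0.578) or vehicle 3 (-0.299).

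Plau, the urokinase activator of plasminogen, lay above all vehicle arrays on the telmisartan arrays, with 3.32 on telmisartan 1 just above 3.31 on vehicle 3. Its log2 fold change of 0.17 was under the 1.2-fold threshold (unadjusted limma p of 0.158). Plaur, its receptor, had a log2 fold change of 0.19 and was not called. Plg, plasminogen, gave 10.86, 11.16 and 10.90 with telmisartan, against 10.91, 10.85 and 10.86 with vehicle. Serpinf2, the inhibitor of plasmin, gave 9.75, 10.29 and 9.95 with telmisartan, against 9.88, 9.91 and 10.01 with vehicle. Telmisartan 2 stood above the other arrays for both, and neither was called.

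Of the 5 members called lower, 4 (Tfpi, Procr, Plat and Cd55) had a mean log2 intensity under 5. Among probe sets with a mean of at least 5 only Cd59a remained called lower, against 338 of 5604 genes. How many of the members passed that filter was not counted. Tfpi, Procr and Plat are known as products of endothelial cells, as are Thbd and, from the further list below, Vwf (von Willebrand factor) and F8. Thbd and Vwf had log2 fold changes of -0.02 and 0.02 and were not called, while F8 was called lower at -0.57. Thbd was dim too, between 3.22 and 3.59 on all arrays. Of the 10 endothelial markers 8 were called lower, with a median log2 fold change of -0.49 over the list. Of all genes 3.5% were called lower, the share to set beside each marker list here. For the lists of brighter markers the 338 of 5604 genes above are the nearer background. The summed linear intensity of the 10 endothelial markers was 613 to 859 on the telmisartan arrays and 897 to 1118 on the vehicle arrays. The dimmest of the 10 had a mean log2 intensity of 4.71. Of the 10 markers of Kupffer cells and macrophages 4 were called lower, with a median of -0.30 and summed intensities of 801 to 887 with telmisartan and 843 to 1310 with vehicle. The 12 hepatocyte markers had no call and a median of -0.01. In bulk liver, fewer cells of a type and less RNA per cell cannot be told apart, and the part of these cells in the members' values was not tested. The other lists held 2 calls lower of 10 stellate cell and fibroblast markers and 2 of 8 platelet markers. There were 0 of 5 cholangiocyte, 0 of 8 neutrophil, 0 of 5 adipocyte and 0 of 1 measured erythroid markers. In none of these lists was a marker called higher.

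Of the 7 complement regulators 2 were called lower (28.6%, against 3.5% of all genes) and none higher. Cd59a encodes a surface protein that stops C9 from joining the pore. Its level (probe set 17373825) was 7.42, 7.06 and 7.20 with telmisartan, against 7.65, 7.88 and 7.50 with vehicle, and the groups did not overlap. Cd59a averaged 7.23 ± 0.18 with telmisartan and 7.67 ± 0.19 with vehicle (SD, n = 3 each). The log2 fold change was -0.45 with a standard error of 0.14 (limma p of 0.0121 unadjusted, adjusted p = 0.695), and the call was lost without vehicle 2 (-0.348).

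Cd55 encodes decay-accelerating factor, which takes the C3 and C5 convertases apart. Probe set 17226622 gave 4.82, 4.10 and 4.47 with telmisartan, against 4.78, 5.10 and 5.05 with vehicle, with telmisartan 1 just above vehicle 1. Cd55 had a log2 fold change of -0.52, with a standard error of 0.18 (limma p of 0.0221 unadjusted, adjusted p = 0.696). The call was lost without telmisartan 2 (-0.335), telmisartan 3 (-0.518), vehicle 2 (-0.455) or vehicle 3 (-0.478). Both regulators have a close paralogue next to them in the mouse genome. Cd55b had a log2 fold change of 0.23 and Cd59b one of -0.07, neither was called, and how far the probe sets tell the copies apart was not tested.

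The soluble regulators were not called. Vtn, vitronectin, which holds the pore complex in solution, gave 10.89, 11.20 and 10.85 with telmisartan, against 11.23, 11.07 and 11.09 with vehicle. Serping1, the C1 inhibitor, gave 10.25, 10.48 and 10.22 with telmisartan, against 10.34, 10.57 and 10.65 with vehicle. The groups overlapped for both, and the log2 fold changes were -0.15 and -0.20. Clu (clusterin, -0.06), Cfi (factor I, -0.02) and C4bp (C4b-binding protein, 0.13) were nearer to 0. Clu was the steadiest bright member, with an SD within groups of 0.06, and 7.74% of the genes of that brightness had a smaller one.

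None of the 12 complement components and neither of the 2 receptors was called, against 6.58% of all genes. The early components C1s1 (-0.05), Mbl1 (-0.08), Mbl2 (0.09) and Masp1 (-0.06), proteases and lectins of the classical and lectin pathways, had log2 fold changes smaller than 0.1 in size. C1s1 was the only member with a second probe set, which gave a log2 fold change of 0.04. C2, the protease of the classical C3 convertase, gave 6.42, 6.63 and 6.56 with telmisartan, against 6.56, 6.23 and 6.51 with vehicle. Its neighbour Cfb, factor B of the alternative pathway, gave 9.22, 9.75 and 9.45 with telmisartan, against 9.53, 9.39 and 9.30 with vehicle. The groups overlapped for both, with log2 fold changes of 0.10 for C2 and 0.07 for Cfb. Cfp, properdin, the stabiliser of the alternative convertase, was below all vehicle arrays on the telmisartan arrays, at 5.87 ± 0.07 against 6.09 ± 0.16 with vehicle (SD, n = 3 each), but its log2 fold change of -0.22 was under the 1.2-fold threshold.

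The receptors of the anaphylatoxins were dim. C3ar1 gave 3.93, 3.95 and 3.41 with telmisartan, against 3.81, 3.95 and 4.11 with vehicle. C5ar1 gave 3.67, 2.81 and 2.37 with telmisartan, against 2.75, 2.90 and 3.07 with vehicle. The telmisartan arrays enclosed all vehicle arrays for C5ar1, whose log2 fold change was 0.04 with a standard error of 0.29 and turned to -0.317 without telmisartan 1.

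C6, C8a, C8b and C9 differed more between mice of 1 group than between the groups. C6 gave 7.50, 7.72 and 6.42 on the telmisartan arrays, against 8.07, 6.47 and 6.10 on the vehicle arrays. C9, which polymerises into the wall of the pore, gave 9.16, 9.36 and 8.89 with telmisartan, against 9.61, 8.75 and 8.58 with vehicle. C8b gave 9.13, 9.47 and 8.48 with telmisartan, against 9.38, 8.67 and 8.35 with vehicle. In all 3 genes telmisartan 1, telmisartan 2 and vehicle 1 were high, and telmisartan 3, vehicle 2 and vehicle 3 were low. C8a, the neighbour of C8b, gave 8.74, 9.35 and 8.26 with telmisartan, against 9.39, 8.89 and 8.70 with vehicle. It shared the high vehicle 1 and telmisartan 2 and the low telmisartan 3, while telmisartan 1 lay just above vehicle 3. C8g, the third chain of C8, was steadier and gave 8.30, 8.23 and 8.24 with telmisartan, against 8.23, 7.92 and 7.86 with vehicle.

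The log2 fold change was 0.33 for C6 with a standard error of 0.51, 0.16 for C9 (0.26), 0.22 for C8b (0.31), -0.21 for C8a (0.28) and 0.25 for C8g (0.12). The SD within groups was 0.89 for C6, and 99.1% of the 1485 genes with a mean of at least 7 had a smaller one. The shares were 96.8% for C8b at 0.52, 96.2% for C8a at 0.46 and 95.4% for C9 at 0.43. Without vehicle 1, C6, C8g and C9 were called higher with telmisartan, C6 by 0.928 and C9 by 0.472. Without vehicle 3 the log2 fold change was -0.0564 for C6 and -0.0464 for C9.

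**Figure D3:**
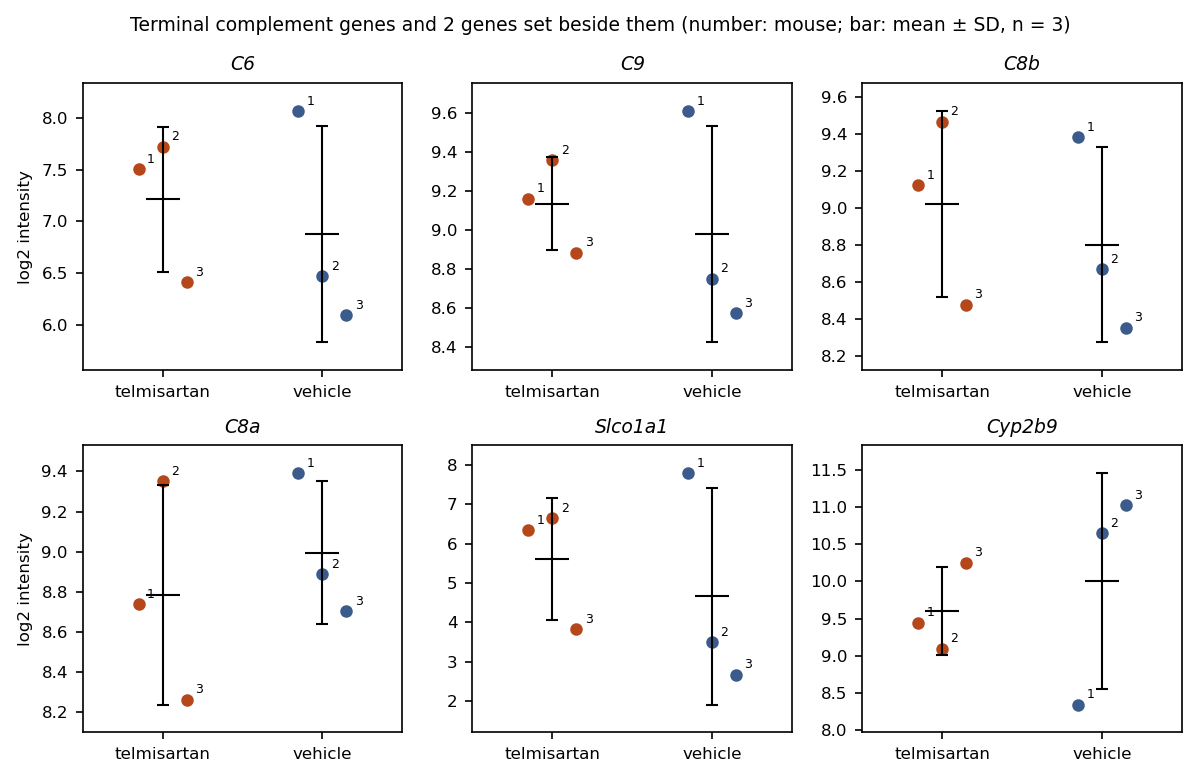
The log2 intensity of C6, C9, C8b and C8a and of the non-members Slco1a1 and Cyp2b9 on each array, with telmisartan (red) left of vehicle (blue), the mouse number beside each point, and the mean ± SD of 3 mice as a bar. Vehicle 1 stood above vehicle 2 and 3 for the first 5 genes and below them for Cyp2b9.

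Over the 6 arrays the Pearson r was 0.976 between C6 and C9, 0.975 between C6 and C8b, 0.933 between C8b and C9 and 0.760 between C6 and C8a, and after the group means were taken out it was 0.975, 0.974, 0.930 and 0.873. These are descriptions of 6 arrays that were scaled together. F11 went the same way, with an r of 0.777 to C6 and 0.811 to C9. After the group means were taken out these were 0.894 and 0.948. C7, which joins the pore between C6 and C8, had an r of -0.622 to C6, but it was dim, between 2.97 and 3.65 on all arrays.

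The promoters of C6, C8b and C9 are shown because their levels moved together from mouse to mouse: 150 bases before the start, at chr15:4727060-4727209 for C6, chr4:104766167-104766316 for C8b and chr15:6445196-6445345 for C9, all on the plus strand of GRCm38.p6, with the same motifs in capitals.
C6: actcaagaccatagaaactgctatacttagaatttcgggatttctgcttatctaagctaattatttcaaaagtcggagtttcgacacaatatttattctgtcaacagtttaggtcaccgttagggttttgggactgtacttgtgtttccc
C8b: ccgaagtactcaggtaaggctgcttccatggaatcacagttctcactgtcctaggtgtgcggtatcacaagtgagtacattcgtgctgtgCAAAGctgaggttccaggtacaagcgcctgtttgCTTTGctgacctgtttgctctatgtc
C9: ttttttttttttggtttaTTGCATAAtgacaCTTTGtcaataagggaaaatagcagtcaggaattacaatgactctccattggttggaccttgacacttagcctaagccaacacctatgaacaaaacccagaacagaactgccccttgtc
C8b held 2 copies of the HNF4 core, C9 held 1 HNF4 core and 1 C/EBP match, and these letters were not in the window of C6.

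Among the 186 genes whose levels spanned at least 1.5 log2 units over the 6 arrays, the 5 with the highest correlation to C6 were Slco1a1, Selenbp2, Avpr1a, Serpina1e and Obp2a, a search made after the levels of C6 were seen. Slco1a1, an uptake transporter for organic anions, had an r of 0.996 and gave 6.35, 6.66 and 3.82 with telmisartan, against 7.80, 3.50 and 2.67 with vehicle. The most opposite genes were Cyp2b9, Dbp, Usp2, Cyp2b13 and Cyp2a22. Cyp2b9, a cytochrome P450, had an r of -0.978 and gave 9.45, 9.10 and 10.25 with telmisartan, against 8.34, 10.65 and 11.03 with vehicle. In mouse liver Slco1a1 is known as a male-biased gene and Cyp2b9 as a female-biased gene, and Dbp and Usp2 are known to follow the time of day. All mice were labelled male, the time of day of each sample was not used here, and the part of either in the members' values was not tested.

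**Figure D4:**
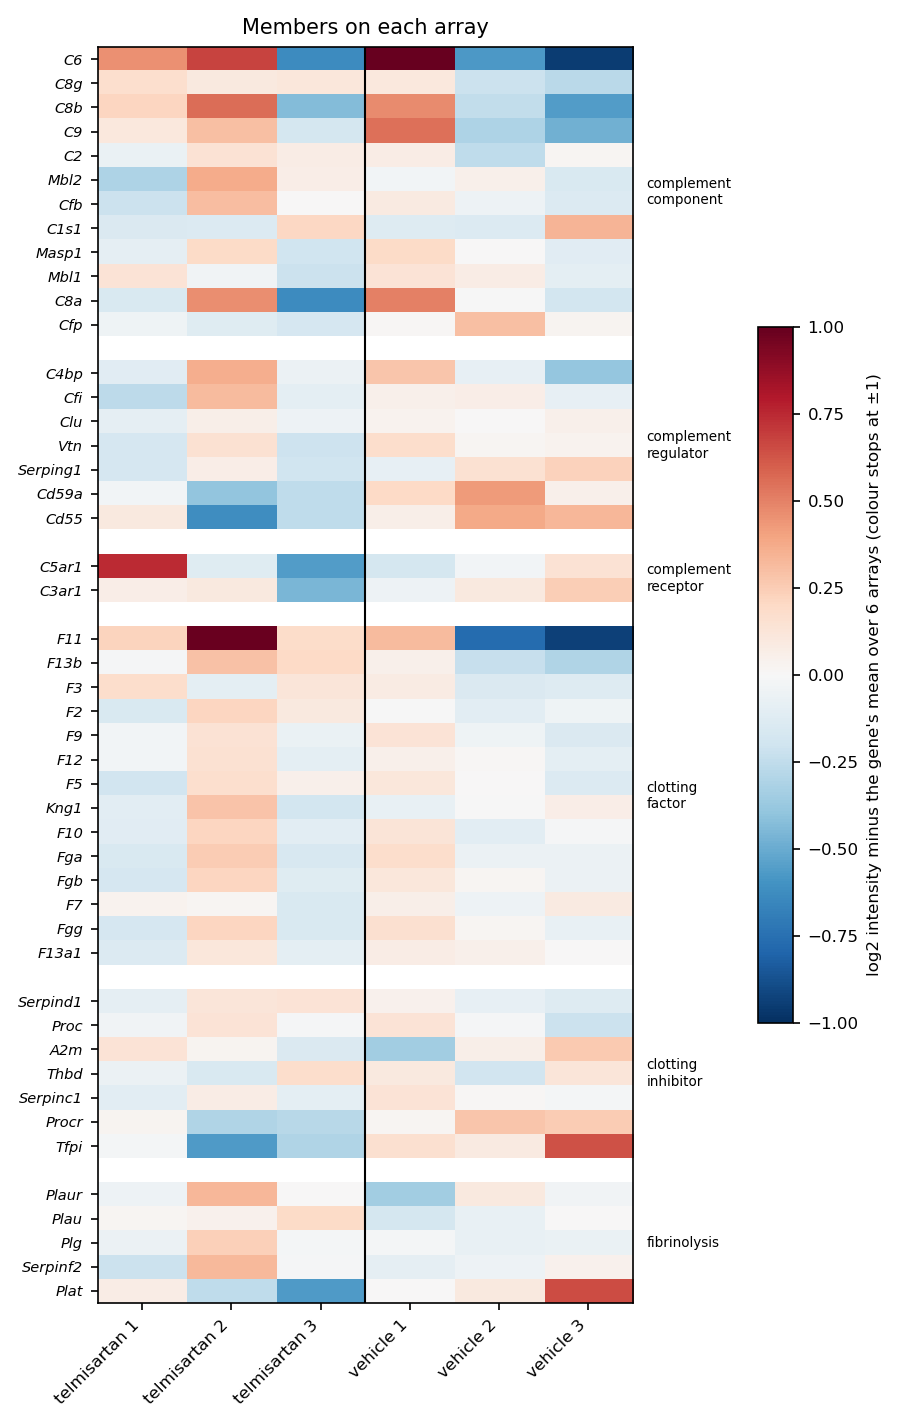
Colours give each member's log2 intensity on an array minus its mean over the 6 arrays (scale stops at ±1), with the 3 telmisartan arrays left of the line and the 3 vehicle arrays right of it, and genes grouped by role. Telmisartan 2 was the highest array for 23 of the 47 genes, and C6 and F11 had the widest range of colours.

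One telmisartan array was the highest for many members, though not over the whole list. Telmisartan 2 was the highest array for 23 of 47 members, among them the fibrinogen chains, F2, F5, Plg and Serpinf2. It was the lowest array for Cd55, Cd59a, Tfpi and Procr, all called lower. How often it was the highest array over all genes was not counted. Its median deviation from the members' means was 0.15 on the log2 scale. The median deviation was -0.06 for telmisartan 1 and -0.10 for telmisartan 3, against 0.08, -0.00 and -0.04 for vehicle 1 to 3. The median log2 fold change of the members was -0.0771 without telmisartan 2 and 0.0508 without telmisartan 3. Without telmisartan 2 only Cd59a stayed called, without vehicle 2 only Tfpi, without vehicle 3 only Cd59a and Tfpi, and without telmisartan 3 only F11, Cd59a and Tfpi. Without telmisartan 1 or vehicle 1 all 7 stayed called. In the same order, 1244, 1200, 1281, 1186, 1683 and 1716 of all 22087 genes were called, against 1453 in the main fit. With vehicle 1 and telmisartan 2 both left out, a setting chosen after the values were seen, 4 of the 7 stayed called. These were F11, F13b, Cd55 and Procr, while Cd59a, Tfpi and Plat were lost. The 3 others that joined them were C8g, F3 and Serping1.

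A further list held 56 measured complement and coagulation genes outside the 47. Of these 8 were called lower and none higher, 14.3% against 3.5% of all genes called lower, with a median log2 fold change of -0.08. C5ar2, the second receptor for C5a, averaged 4.25 ± 0.04 with telmisartan and 4.79 ± 0.30 with vehicle (SD, n = 3 each), a log2 fold change of -0.54, and was called lower whichever single array was left out. Without vehicle 1 and telmisartan 2 together it gave -0.531 and was not called, while 9 others of the list were called lower. Among probe sets with a mean of at least 5, which leaves out C5ar2 and C7, 6 of the list were called lower. With that filter 338 of 5604 genes were called lower, and how many of the 56 passed it was not counted. F8, factor VIII, which liver sinusoidal endothelial cells make, averaged 5.99 ± 0.33 with telmisartan and 6.56 ± 0.26 with vehicle (SD, n = 3 each), a log2 fold change of -0.57. Fcna, ficolin A, a lectin that starts the lectin pathway, had a log2 fold change of -0.52, and C7 one of -0.39. F2r, the thrombin receptor PAR1, had one of -0.36. Cpn1, the catalytic subunit of carboxypeptidase N that trims anaphylatoxins and kinins, had one of -0.33. Ggcx, the carboxylase that forms the Gla residues of the vitamin K-dependent factors, had one of -0.32. The genes of its 5 substrates among the members had log2 fold changes between -0.06 and 0.10. The Gla residues of the proteins were not measured. Vsig4, a complement receptor of Kupffer cells that is also on the Kupffer cell list above, had one of -0.28. The 3 telmisartan arrays lay below the vehicle arrays for 7 of the 56 and above them for none, against 6.35% and 6.08% of all genes. The methods' t-test called 3 of the 8, Cpn1, C5ar2 and Ggcx. Without vehicle 3 or without telmisartan 3 only C5ar2 was called, and without vehicle 1 there were 13 calls, 2 of them higher. In the same order, 1281, 1186 and 1716 of all 22087 genes were called.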

How the data were processed

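The authors hybridised liver RNA of 3 telmisartan-treated and 3 vehicle-treated mice to Affymetrix Mouse Gene 2.0 ST arrays, normalized them together by RMA (version not given in the sources used here) and deposited linear intensities of 31873 probe sets. The deposited intensities were turned to log2 values with no pseudocount. RMA scales the arrays to one another, so a level is relative to the other genes of its array. Gene names came from the platform's probe table, which pairs 23094 probe sets with 1 symbol.

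All 23094 probe sets entered a 2-sided limma fit (limma 3.58.1, R 4.3.3), with Benjamini-Hochberg adjustment over all of them. The statistics were tested on simulated data. The replicates are separate mice, and no slide, scan date or RNA quality record was used. Levels on each array are given for called members, for the 2 brightest members of each role and the one with the largest change, for the fibrinogen chains and for neighbouring members, and of the other pathway genes the called ones are named. Promoters came from RefSeq. Members and lists were chosen with earlier results of these data known.

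The alternatives were the methods' t-test, an intensity trend, array weights, other thresholds and scalings, a filter on dim probe sets, other choices of probe set, a replicate block, each array left out, and vehicle 1 and telmisartan 2 left out together, which was added after the values were seen. Figures were drawn with matplotlib 3.10.9.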

Additional observations from a re-analysis of the deposited data

How the results depend on the processing

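The counts of calls depended on the threshold and on single arrays. The methods' t-test called 0 members higher and 1 lower, and 3 of the other pathway genes. Of all 22087 genes it called 325 higher and 387 lower, against 681 and 772 in the main fit. A fold of at least 1.5 left 1 higher, 1 lower and 0 other pathway genes, against 66 higher and 102 lower of all genes. An adjusted limma p under 0.05 left 0 of each, where an unadjusted p under 0.05 held for 7 members and 8 other pathway genes. Centring the arrays on their medians left 1 member higher and 5 lower, against 2 and 5, and with a mean of at least 5 there was 1 lower. Centring called 563 of all genes higher and 907 lower, and with a mean of at least 5, 338 of 5604 were lower. With arrays left out in turn, the count of members higher ranged between 0 and 5, that of members lower between 1 and 5, that of other pathway genes between 1 and 13, and the members' median log2 fold change between -0.0771 and 0.0508. The count called of all 22087 genes ranged between 1186 and 1716. Without vehicle 1 and telmisartan 2 together there were 4 members higher and 3 lower, against 778 and 839 of all genes. Mice that share a number were not treated as pairs. The deviations of same-numbered arrays correlated at 0.02, -0.02 and 0.03, and those of differently numbered arrays at -0.06 to 0.04. With 3 arrays per group and no batch record used, this cannot settle whether a number marks a shared batch. A fit with the replicate number as a block called 1 member higher, 4 lower and 6 other pathway genes, against 727 higher and 762 lower of all genes.

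With 1 array left out, the sign of the log2 fold change turned for 23 of the 47 members, none of them called. Other settings were run for the genes of the naming rule alone, and there F10 gave 0.00673 with array weights, 0.0143 with quantile normalization and 0.00956 with cyclic loess. Among the genes of that rule, the values that turned with 1 array left out and the far end of their range were 0.0491, 0.0451, 0.0551 and -0.117 for F10, 0.0233, 0.0297, 0.0361 and -0.178 for Fga, 0.0209 and -0.169 for Fgb, -0.0564 and 0.928 for C6, 0.0508 and -0.495 for C8a, -0.000132, -0.00244 and 0.513 for C8b, -0.0464 and 0.472 for C9, -0.0719 and 0.192 for Cfb, -0.317, -0.0332 and 0.332 for C5ar1, and -0.0825 and 0.189 for Serpinf2. C1s1, Cfi, C4bp, Masp1, Mbl1, Mbl2, F5, F9, F12, Kng1, Proc, Thbd and A2m turned too. Without vehicle 1 and telmisartan 2 together, Cfb gave -0.0106 and Serpinf2 -0.111. The cause was not tested.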
